A study of Rattus norvegicus with 26 samples.

Results

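The gubernaculum of ORL rat fetuses was compared with that of Long Evans (LE) fetuses at gestational day 17 (GD17). ORL is a strain with inherited cryptorchidism, the failure of the testis to descend, and LE served as the comparison strain. The 12 arrays were those whose titles name the strain and GD17, 7 of ORL and 5 of LE, out of 26 arrays in the series. The others were 12 arrays of the same strains at gestational day 19 (GD19) and 2 arrays of GD19 whose strain the labels give as unknown after an apparent mix-up, which were not used. Each array held RNA from a pool of gubernacula of a litter, labelled by a 3′ in vitro transcription kit and hybridized to an Affymetrix GeneChip.

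LE replicates 1 to 3 and ORL replicates 1 to 3 were hybridized in batch 1, and LE replicates 4 and 5 and ORL replicates 4 to 7 in batch 2, so both strains stood in both batches. No treatment, transgene or other allele is given in the labels, and the strains may differ at any number of loci. Values are log2 probe set intensities, and a difference is ORL minus LE in log2 units from a linear model with the batch as a term, ± its standard error (SE). A gene was called higher or lower where the Benjamini-Hochberg adjusted p of limma was under 0.05 over all 15746 probe sets tested. The p-values measure the spread between litter pools. In tissue RNA, fewer cells of a type and less RNA per cell cannot be told apart.

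The gubernaculum is a cord of mesenchyme with an outer layer of striated muscle that anchors the fetal testis near the future inguinal canal. In its swelling phase the core cells divide and lay down a hydrated matrix under the hormone Insl3 of the Leydig cells, and androgen acts on the later inguinoscrotal phase. The muscle is built from precursors that express Myod1 and later Myog and assembles sarcomeres, in which myosin thick filaments slide along actin thin filaments anchored at the Z-disc. Genes expected of this tissue were bright on all 12 arrays. The homeobox genes Hoxa10 and Hoxa11, which mark the posterior trunk and limb, read 11.29 to 11.96 and 9.07 to 9.55. Pdgfra, a receptor of mesenchymal cells, read 12.87 to 13.39. Of the 14 testis and male tract markers on the array, 13 were below 4 on all 12 arrays. Esr1 and Insl3 were too dim to be tested, and Rxfp2, the receptor of Insl3, was not analysed here.

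Called differences were many and mostly small. Of 9610 genes, each at its brightest probe set, 1618 were higher in ORL (16.8%) and 1127 lower (11.7%), with a median difference of 0.03. At the level of probe sets, 25.6% were called, and 355 of 15746 also passed a 2-fold change (2.25%), of which 123 were gains (0.781%) and 232 losses (1.47%). All ORL arrays lay above all LE arrays for 6.81% of the genes and below all of them for 4.3%. The first principal component of the 12 arrays held 35.4% of the variance, and all 5 LE arrays lay below 0 on it and all 7 ORL arrays above.

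A pair of features of the arrays bear on these counts. LE replicate 4 stood apart, at 23.27 on the first component of the 24 arrays with a known strain. The other LE arrays at GD17 lay between -15.92 and -7.77, and the ORL arrays at GD17 between -57.06 and -19.25. LE arrays at GD19 lay between 21.54 and 45.59, a range that holds LE replicate 4. Whether that array or the strains differed in developmental stage was not tested. Without LE replicate 4, 1100 genes were higher (11.4%) and 742 lower (7.72%). Of the 2745 called genes, 1753 were called with and without it. The strains also differed in how an array's values ran with gene span, the length of the gene on the chromosome. The slope of the values on span was 0.06 ± 0.0308 in LE and -0.11 ± 0.0703 in ORL (SD, log2 per 10-fold span), and the groups did not overlap (exact permutation p = 0.00379, two-sided, adjusted p = 0.0114 over 3 measures). The gap between the 3′ and 5′ control probe sets of β-actin, a sign of RNA integrity, was 1.28 ± 0.28 in LE and 1.41 ± 0.33 in ORL (SD, log2; exact permutation p = 0.477). That of Gapdh was 0.22 ± 0.16 and 0.15 ± 0.18 (p = 0.475, exact permutation). With the slope as a covariate, 254 genes were called (2.64%), 121 of them higher (1.26%) and 133 lower (1.38%). The slope was computed from the same values and separated the strains, so slope and strain cannot be told apart by that fit. Counts without LE replicate 4 stand beside most gene groups, and medians with the slope as a covariate stand beside a group or together after the chromatin genes.

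The genes with the largest gains in ORL had varied functions. Zp2, a glycoprotein of the egg coat, read 3.64, 3.07, 2.38, 2.43 and 2.38 on the LE arrays and 7.02 to 7.60 on the ORL arrays (median 7.32). All LE arrays were below 4, the level taken as dim, and Zp2 was at least 9.95-fold higher in ORL (difference 4.51 ± 0.23, adjusted p = 1.12e-11). Pard6g, a scaffold of the PAR complex that sets cell polarity, read 5.71, 6.14, 6.20, 5.06 and 6.02 in LE and 9.53 to 9.97 in ORL (median 9.65). The groups lay far apart, and the difference was 3.92 ± 0.17 (15.2-fold, adjusted p = 1.13e-12). Ano3, of the anoctamin family of membrane proteins, read 2.16 to 2.50 in LE and 5.47 to 6.40 in ORL. It was at least 3.93-fold higher (3.68 ± 0.15, adjusted p = 6.93e-13).

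Several genes of signalling and transport followed. Crh, the hypothalamic hormone that drives release of corticotropin, read 2.36, 3.48, 4.31, 2.21 and 5.11 in LE and 6.76 to 8.12 in ORL (median 7.59). The LE pools spread widely and stayed below every ORL pool (3.97 ± 0.34, 15.7-fold, adjusted p = 8.4e-08). Avpr1a, the vasopressin receptor that signals through calcium, was below 3 in LE (2.17 to 2.83) and ran from 3.53 to 5.41 in ORL (median 4.96). Its difference was 2.33 ± 0.37 (at least 1.57-fold, adjusted p = 0.000221). Chrna5, a nicotinic receptor subunit of neurons, was at the floor in LE (2.16 to 2.19) and read 4.20 to 5.59 in ORL, with no overlap (2.87 ± 0.34, at least 2.09-fold, adjusted p = 7.71e-06).

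Pnlip, the pancreatic lipase, read 3.36, 4.88, 7.36, 2.65 and 6.77 in LE and 7.77 to 8.89 in ORL (3.17 ± 0.62, 9-fold, adjusted p = 0.00115). The LE pools differed widely from each other, and all stayed below the ORL pools. Nup62cl, a homologue of a nuclear pore protein, read 3.71 to 5.80 in LE and 7.43 to 8.47 in ORL (3.04 ± 0.38, 8.21-fold). Cldn11, a tight junction claudin, read 5.42, 6.18, 6.75, 3.53 and 5.81 in LE and 6.97 to 8.34 in ORL (2.09 ± 0.42, 4.25-fold). Rab27b, a GTPase of vesicle secretion, read 3.38 to 5.38 in LE and 5.40 to 6.89 in ORL (1.95 ± 0.35, 3.86-fold). Their limma adjusted p was at most 0.00139. Angpt2, an angiopoietin of vessel remodelling, read 2.90 to 5.72 in LE and 5.14 to 6.80 in ORL, with overlap (2.03 ± 0.38, 4.09-fold, adjusted p = 0.000856). Abca1, which exports cholesterol from cells, read 8.28, 8.37, 8.14, 6.19 and 8.27 in LE and 9.08 to 10.05 in ORL. LE replicate 4 was alone at the low end, and the difference was 1.81 ± 0.32 with it and 1.37 without it (adjusted p = 0.000535 and 0.00177). Of the 2 other probe sets of Abca1, 1 was called the same way and 1 the opposite way.

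Genes with the largest losses in ORL included adhesion proteins and enzymes. Cntn3, a contactin of neural cell adhesion, read 6.55, 7.18, 6.12, 6.32 and 7.06 in LE and 2.26 to 2.97 in ORL (median 2.47). Every ORL array was dim, and Cntn3 was at least 6.26-fold lower (-4.06 ± 0.21, adjusted p = 1.49e-11). Tspan18, a tetraspanin, read 5.15 to 6.75 in LE and 2.19 to 3.71 in ORL (at least 3.47-fold lower, adjusted p = 7.88e-05). Pxmp4, a protein of the peroxisomal membrane, read 7.63, 7.44, 6.68, 7.80 and 7.51 in LE and 3.92 to 5.81 in ORL (median 5.16). The groups did not overlap, with a difference of -2.55 ± 0.20 (5.85-fold lower, adjusted p = 2.99e-08). Ephx2, an epoxide hydrolase that also sits partly in peroxisomes, read 5.86, 4.02, 4.31, 6.29 and 5.62 in LE and 2.65 to 2.96 in ORL (at least 2.33-fold lower, adjusted p = 0.00033). Cp, the copper-carrying ferroxidase ceruloplasmin, read 3.72 to 5.44 in LE and 2.44 to 3.08 in ORL (at least 1.62-fold lower, adjusted p = 8.66e-06).

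For the next genes among the losses, LE replicate 4 was the highest LE array, as it was for Pxmp4, Ephx2 and Cp. Cps1, the first enzyme of the urea cycle, read 7.44, 6.52, 2.55, 10.97 and 4.99 in LE and 2.22 to 6.01 in ORL (median 2.48). The groups overlapped, and the call (-3.72 ± 1.34, adjusted p = 0.0454) was lost without LE replicate 4, at -2.82 and an adjusted p of 0.174. It was also lost without LE replicate 1 or 2, or without ORL replicate 2, 3, 5, 6 or 7. Gsta1, a glutathione transferase, read 5.83, 5.44, 3.57, 7.85 and 4.31 in LE and 2.49 to 5.0 in ORL. Its call (-2.11 ± 0.65, adjusted p = 0.0208) was likewise lost without that array (-1.48, adjusted p = 0.11), and also without LE replicate 1. For Fndc1, a matrix protein with fibronectin domains, LE replicate 4 was also the highest, at 9.43 against 6.91 to 7.78 on the other LE arrays. Even so, the ORL arrays (3.78 to 6.72) stayed below all of them and the call held without it (-2.74 ± 0.45 with it, adjusted p = 0.000301, and -2.24 without it, adjusted p = 0.00166).

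**Figure D1:**
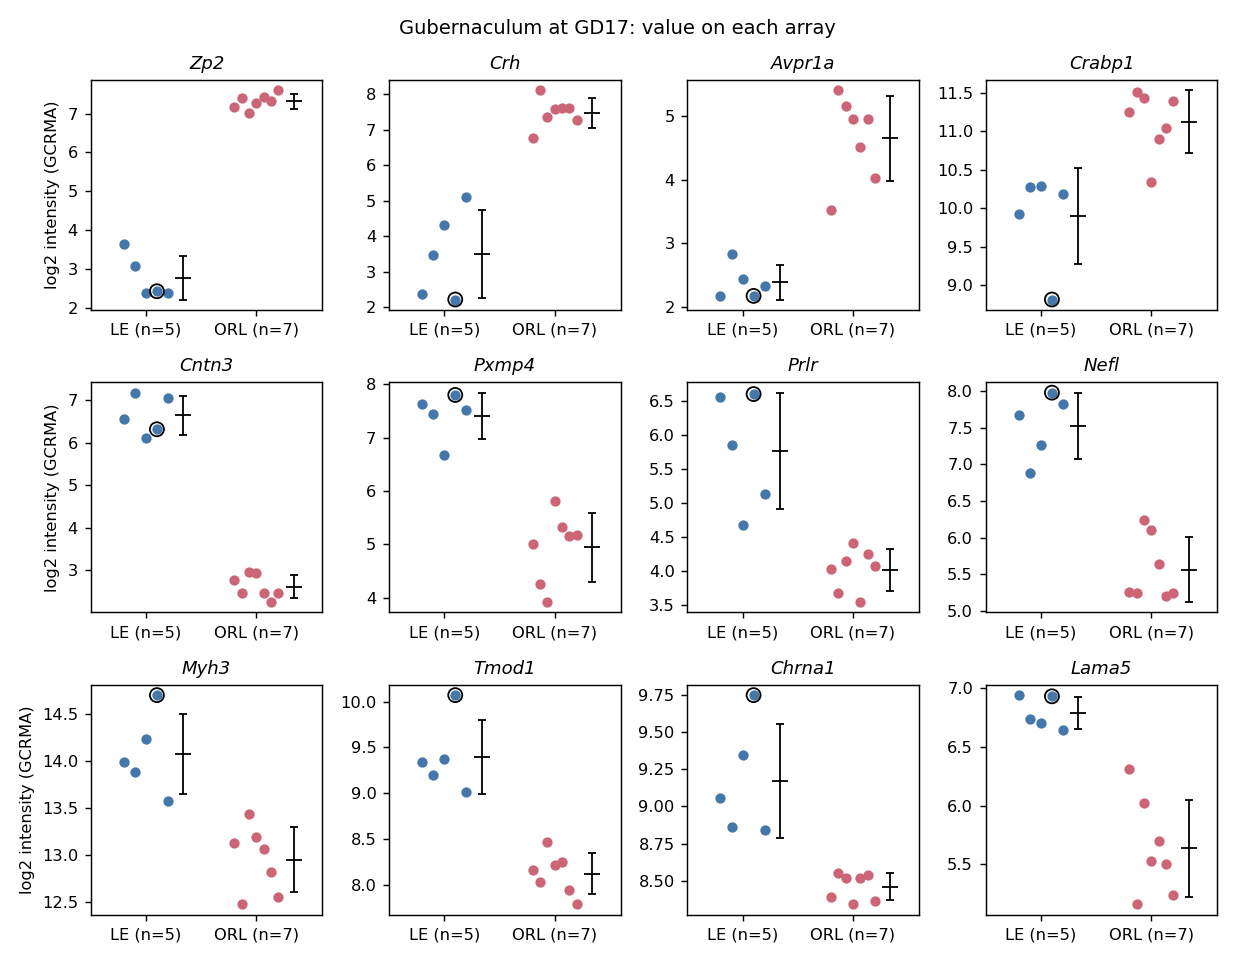
Log2 intensity of 12 genes on each GD17 array, LE in blue and ORL in red, with replicates in order from left to right, and the mean ± SD at the right of each group; the ring marks LE replicate 4. In all 12 panels the ORL points lie wholly above or wholly below the LE points. LE replicate 4 is the highest LE array for Pxmp4, Prlr, Nefl, Myh3, Tmod1 and Chrna1. It is the lowest for Crh and Crabp1 and level with the lowest for Avpr1a.

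Many striated muscle genes were lower in ORL, with called members in each of 7 lists, and 59 of 105 were not called. Over 7 lists joined, 45 of 105 genes tested were lower and 1 was higher, with a median of -0.45, against 11.7% lower, 16.8% higher and a median of 0.03 over all genes. For 18 of the 105, every ORL array lay below every LE array, against 4.3% of all genes. Without LE replicate 4, 28 were lower and 0 higher, with a median of -0.30. With the slope on span as a covariate the median was -0.53 and 3 were called lower. In batch 1 alone the median was -0.36 and in batch 2 alone -0.52. Bright members that were not called by limma included Myl11 of the thick filament list (-0.07 ± 0.0817, adjusted p = 0.558). Csrp3 of the Z-disc list was not called either (-0.02 ± 0.19, limma adjusted p = 0.946).

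In the thick filament, 8 of 13 genes were lower and 0 higher (median -0.70; 6 lower without LE replicate 4). Myh3, the embryonic myosin heavy chain, read 13.99, 13.88, 14.23, 14.70 and 13.57 in LE and 12.47 to 13.43 in ORL (median 13.06). It was among the brightest genes of the tissue in both strains, and the groups did not overlap (-1.13 ± 0.17, 2.18-fold lower, adjusted p = 0.000152). Myh7, the slow myosin heavy chain, read 10.69, 10.60, 10.62, 11.59 and 9.88 in LE and 8.63 to 9.64 in ORL (-1.55 ± 0.24, 2.92-fold lower, adjusted p = 0.000183). Myom1, which links thick filaments at the M-band, read 9.81, 9.66, 9.76, 11.02 and 9.66 in LE and 8.75 to 9.47 in ORL (-0.90 ± 0.19). Its LE values agreed closely apart from replicate 4, without which the difference was -0.62 (adjusted p = 0.00184 with it and 0.00525 without it).

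In the thin filament, 9 of 17 genes were lower and 0 higher (median -0.46), and 4 were lower without LE replicate 4. Neb, the giant ruler of thin filament length, read 10, 9.63, 9.30, 10.71 and 8.24 in LE and 6.66 to 8.59 in ORL (median 7.31). LE replicate 5 fell within the ORL range, and the difference was -2.09 ± 0.36 (4.25-fold lower, adjusted p = 0.000419). Its other probe set was not called. Tmod1, which caps the pointed end of the filament, read 9.34, 9.20, 9.37, 10.07 and 9.01 in LE and 7.79 to 8.47 in ORL (median 8.16). The groups lay apart (-1.25 ± 0.18, 2.38-fold lower, adjusted p = 0.000101), and its other probe set was not called. Acta1, skeletal α-actin, was near the top of the scale in both strains (13.98 to 14.71 in LE and 13.69 to 14.02 in ORL) and differed by less (-0.43 ± 0.10, adjusted p = 0.00503).

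At the Z-disc, 8 of 21 genes were lower and 0 higher (median -0.28; 8 lower without LE replicate 4). Des, desmin, the intermediate filament that ties Z-discs together, read 11.77, 11.73, 11.90, 12.47 and 11.58 in LE and 10.55 to 11.54 in ORL (median 11.15). The highest ORL array lay just under the lowest LE array (-0.71 ± 0.15, 1.64-fold lower, adjusted p = 0.00215). Flnc, the muscle filamin that crosslinks actin at the Z-disc and membrane, read 10.63 to 11.28 in LE and 9.51 to 10.46 in ORL (-0.94 ± 0.15, adjusted p = 0.000221). Of the genes that couple the action potential to calcium release, 7 of 19 were lower and 0 higher (median -0.50), and 4 were lower without LE replicate 4. Ryr1, the calcium release channel, read 7.05, 6.96, 6.56, 8.15 and 4.79 in LE and 3.55 to 5.95 in ORL (-2.13 ± 0.43, 4.39-fold lower, adjusted p = 0.0015). LE replicate 5 was low here too. Hrc, a calcium-binding protein of the reticulum lumen, read 6.70 to 8.51 in LE and 5.33 to 6.38 in ORL (-1.39 ± 0.26, adjusted p = 0.000894). Cacna1s, the voltage sensor, read 4.88 to 5.66 in LE and 4.06 to 4.99 in ORL (-0.86 ± 0.20, adjusted p = 0.00364).

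At the neuromuscular junction, 3 of 8 genes were lower and 0 higher (median -0.47; 2 lower without LE replicate 4). Chrna1, the acetylcholine receptor subunit of muscle, read 9.06, 8.86, 9.35, 9.75 and 8.84 in LE and 8.34 to 8.55 in ORL (median 8.52). The ORL arrays lay close together and below every LE array (-0.71 ± 0.13, adjusted p = 0.000658). Lrp4, the receptor that nerve agrin binds on muscle, read 6.42 to 7.39 in LE and 5.49 to 6.39 in ORL (-1.04 ± 0.23, adjusted p = 0.00316). Agrn, agrin itself, read 9.98, 9.78, 10.59, 10.35 and 10.03 in LE and 8.72 to 10.11 in ORL with overlap (-0.83 ± 0.26, adjusted p = 0.0244). The call for Agrn was lost without LE replicate 4 (-0.72, adjusted p = 0.087), and with the slope on span as a covariate its difference turned to 0.11 (adjusted p = 0.828). In the dystrophin complex, which ties the cytoskeleton to the matrix, 5 of 11 genes were lower and 0 higher (median -0.28; 3 lower without LE replicate 4). Lama2, the laminin chain that the complex binds around muscle fibres, read 7.83, 7.97, 8.12, 9.49 and 7.64 in LE and 5.99 to 7.42 in ORL (-1.45 ± 0.26, 2.73-fold lower, adjusted p = 0.000587). Dtna, dystrobrevin α, read 4.89 to 6.63 in LE and 2.98 to 4.37 in ORL (-1.45 ± 0.31, adjusted p = 0.00215), but its other probe set was called the opposite way.

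Of 16 genes of muscle energy metabolism, 5 were lower and 1 higher (median -0.37), but 1 was lower without LE replicate 4. Ckm, muscle creatine kinase, read 11.31, 11.18, 11.84, 13.05 and 11.08 in LE and 10.42 to 11.06 in ORL (-0.93 ± 0.26, adjusted p = 0.0129). Without LE replicate 4, its difference was -0.56 (adjusted p = 0.0652). Among 22 myogenic regulators, 6 were lower and 1 higher (median -0.29; 4 lower and 2 higher without LE replicate 4). Myod1, the factor that commits cells to muscle, read 9.98, 9.45, 10.10, 10.54 and 9.85 in LE and 9.34 to 9.91 in ORL, and Myog, which drives differentiation, read 11.68 to 12.42 and 11.70 to 11.92. Neither was called (-0.31 ± 0.12 and -0.16 ± 0.11, adjusted p = 0.0593 and 0.316). Cdh15, the cadherin of muscle precursors, read 9.83 to 10.78 in LE and 9.24 to 9.72 in ORL (-0.64 ± 0.12, adjusted p = 0.00104). Eya1, a transcriptional cofactor that acts upstream of Myod1, was the higher member (6.68 to 7.06 in LE and 7.03 to 7.52 in ORL; 0.40 ± 0.10, adjusted p = 0.00803). Of 14 smooth muscle genes, 4 were lower and 0 higher (median -0.04; 3 lower and a median of 0.02 without LE replicate 4). The 28.6% called in that list equalled the share over all genes. The lower smooth muscle genes included Myh11, the smooth muscle myosin heavy chain, at 5.51 to 6.42 in LE and 4.01 to 5.35 in ORL (-1.25 ± 0.30, adjusted p = 0.00451).

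Promoters of 3 of the lower muscle genes are shown because each gene was called lower and its window holds the E-box of the MyoD type. Of the 45 lower genes, 39 had a RefSeq promoter window (build GRCr8), which runs from 250 bases before to 50 bases after the gene start. Capitals mark CAGCTG, which reads the same on both strands, in Chrna1 (chr3:78877304-78877603, minus strand), Des (chr9:84299376-84299675, plus strand) and Acta1 (chr19:68784145-68784444, minus strand), each written 5′ to 3′ along the gene.
Chrna1: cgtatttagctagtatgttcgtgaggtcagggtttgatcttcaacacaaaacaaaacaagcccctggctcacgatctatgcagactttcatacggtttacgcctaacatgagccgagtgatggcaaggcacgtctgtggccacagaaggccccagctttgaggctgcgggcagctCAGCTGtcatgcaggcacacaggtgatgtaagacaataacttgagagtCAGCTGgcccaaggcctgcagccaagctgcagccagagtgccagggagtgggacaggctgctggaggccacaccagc
Des: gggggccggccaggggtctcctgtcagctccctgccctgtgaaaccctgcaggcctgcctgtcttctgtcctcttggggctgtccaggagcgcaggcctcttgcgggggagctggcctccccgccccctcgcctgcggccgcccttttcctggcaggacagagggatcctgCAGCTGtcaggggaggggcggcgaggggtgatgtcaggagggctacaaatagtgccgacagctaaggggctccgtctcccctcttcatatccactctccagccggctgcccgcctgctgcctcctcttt
Acta1: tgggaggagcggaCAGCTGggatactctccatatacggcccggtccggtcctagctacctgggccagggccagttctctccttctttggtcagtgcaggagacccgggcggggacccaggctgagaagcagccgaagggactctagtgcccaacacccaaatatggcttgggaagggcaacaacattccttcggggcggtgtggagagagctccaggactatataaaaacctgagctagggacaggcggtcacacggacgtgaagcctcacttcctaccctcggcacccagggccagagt
In Chrna1 the 2 matches start at -75 and -27 from the gene start, in Des the match starts at -79 and in Acta1 at -237. CAGCTG was in 38.5% of the 39 windows, in 38.8% of the 85 windows of all striated muscle genes tested and in 15.1% of 27457 rat promoter windows. The looser E-box CANNTG, which includes CAGCTG, was in 76.9%, 78.8% and 71.6%. The MCAT motif CATTCC, on either strand, was in 25.6%, 18.8% and 13.9%. Over the 8046 windows of all genes tested, the shares were 15.8% for CAGCTG, 61.6% for CANNTG and 10.9% for CATTCC. The windows of the lower genes thus held CAGCTG about as often as those of striated muscle genes in general. A match is a run of letters and was not tested as a binding site.

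Many genes of the extracellular matrix were lower in ORL, and 63 of 115 were not called. Over 6 lists joined, 50 of the 115 genes were lower and 2 higher (median -0.48). The share called was 45.2%, against 28.6% of all genes. Without LE replicate 4, 29 were lower and 2 higher (median -0.34). The median was -0.08 with the slope on span as a covariate, and 1 gene was then higher and 1 lower. The median span of these genes was 43.4 kb, against 19.6 kb for striated muscle and 24.4 kb for all genes. The medians in batch 1 and batch 2 alone were -0.27 and -0.68, with 4 and 15 genes called lower and 1 and 2 called higher.

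Basement membranes, the sheets of laminin, collagen IV, nidogen and perlecan that wrap muscle fibres and vessels, had mostly lower genes. Of 19 genes 17 were lower and 0 higher (median -0.87), and 8 were lower without LE replicate 4 (median -0.72). Their median span was 111 kb, and with the slope on span as a covariate their median was -0.32 with 0 called. Lama5, a laminin α chain, read 6.94, 6.74, 6.70, 6.93 and 6.64 in LE and 5.16 to 6.31 in ORL (median 5.53). The LE arrays agreed closely and lay above every ORL array (-1.14 ± 0.18, 2.21-fold lower, adjusted p = 0.00017). Lamb2, a laminin β chain found at the neuromuscular junction, read 8.62 to 9.35 in LE and 7.72 to 8.37 in ORL (-0.87 ± 0.13, adjusted p = 0.000187). Nid2, which bridges laminin and collagen IV, read 12.03 to 12.58 in LE and 11.05 to 11.84 in ORL (-0.89 ± 0.14, adjusted p = 0.000253). Hspg2, perlecan, read 5.24, 5.37, 5.96, 6.17 and 4.78 in LE and 3.16 to 4.94 in ORL (-1.28 ± 0.30, adjusted p = 0.00437).

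Of 15 fibrillar and associated collagens, 11 were lower and 0 higher (median -0.99; 8 lower without LE replicate 4). With the slope on span as a covariate 0 were called and the median was -0.28. Col1a1, the main chain of type I collagen, read 14.04, 14.00, 14.17, 14.66 and 13.72 in LE and 12.33 to 13.76 in ORL (median 12.67). The ORL pools spread widely and the highest just reached the lowest LE pool (-1.19 ± 0.23, 2.28-fold lower, adjusted p = 0.000908). Col5a1, which sets the width of collagen fibrils, read 12.02 to 13.12 in LE and 10.51 to 11.86 in ORL (-1.29 ± 0.22, adjusted p = 0.000367). Col24a1, a minor fibrillar collagen, read 6.35 to 7.21 in LE and 5.33 to 5.87 in ORL (-1.02 ± 0.16, adjusted p = 0.000176). Of 26 elastic fibre genes and glycoproteins, 13 were lower and 0 higher (median -0.67), and 8 were lower without LE replicate 4. With the slope as a covariate 0 were called and the median was -0.07. Fbn1, fibrillin 1 of the microfibrils, read 10.66, 10.78, 11.04, 11.38 and 10.66 in LE and 9.25 to 10.34 in ORL (-1.05 ± 0.20, adjusted p = 0.00086). Ltbp3, which tethers latent TGF-β to them, read 9.96 to 10.66 in LE and 8.85 to 9.70 in ORL (-1.01 ± 0.19, adjusted p = 0.000873). Fbln2, a fibulin of elastic fibres and basement membranes, was lower by less (-0.71 ± 0.15, adjusted p = 0.00194).

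Other parts of the matrix had called shares below the 28.6% of all genes or close to it. Of 18 genes of collagen processing 2 were lower and 0 higher (11.1% called, median -0.33), and 1 was lower without LE replicate 4. Of 20 proteases and inhibitors 4 were lower and 0 higher (20% called, median -0.23), and 2 were lower without that array. With the slope on span as a covariate the medians of these lists were 0.06 and 0.00. Loxl1, which crosslinks elastin, read 10.72 to 10.92 in LE and 10.15 to 10.65 in ORL (-0.42 ± 0.0876, adjusted p = 0.00176). Adamts1, a secreted protease that cuts large proteoglycans, read 11.28, 11.24, 11.20, 11.89 and 11.08 in LE and 10.32 to 10.65 in ORL (-0.88 ± 0.10, adjusted p = 7.53e-06). It was among the genes still called with the slope on span as a covariate (-0.73, adjusted p = 0.00461). Of 17 proteoglycan genes 3 were lower and 2 higher (29.4% called, median -0.32), and 2 and 2 without LE replicate 4. The higher ones were Ogn and Aspn, both small leucine-rich proteoglycans, a class whose members Dcn, decorin, and Lum, lumican, were not called (-0.32 ± 0.12 and 0.24 ± 0.12, adjusted p = 0.0542 and 0.136). Ogn, osteoglycin, read 10.36, 9.68, 10.91, 10.26 and 10.70 in LE and 11.50 to 12.02 in ORL (1.31 ± 0.17, 2.49-fold, adjusted p = 2.43e-05). Of its 3 other probe sets, 1 was called the same way and 1 the opposite way. Aspn, asporin, read 8.99 to 9.96 in LE and 10.05 to 10.42 in ORL (0.68 ± 0.15, adjusted p = 0.0029).

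**Figure D2:**
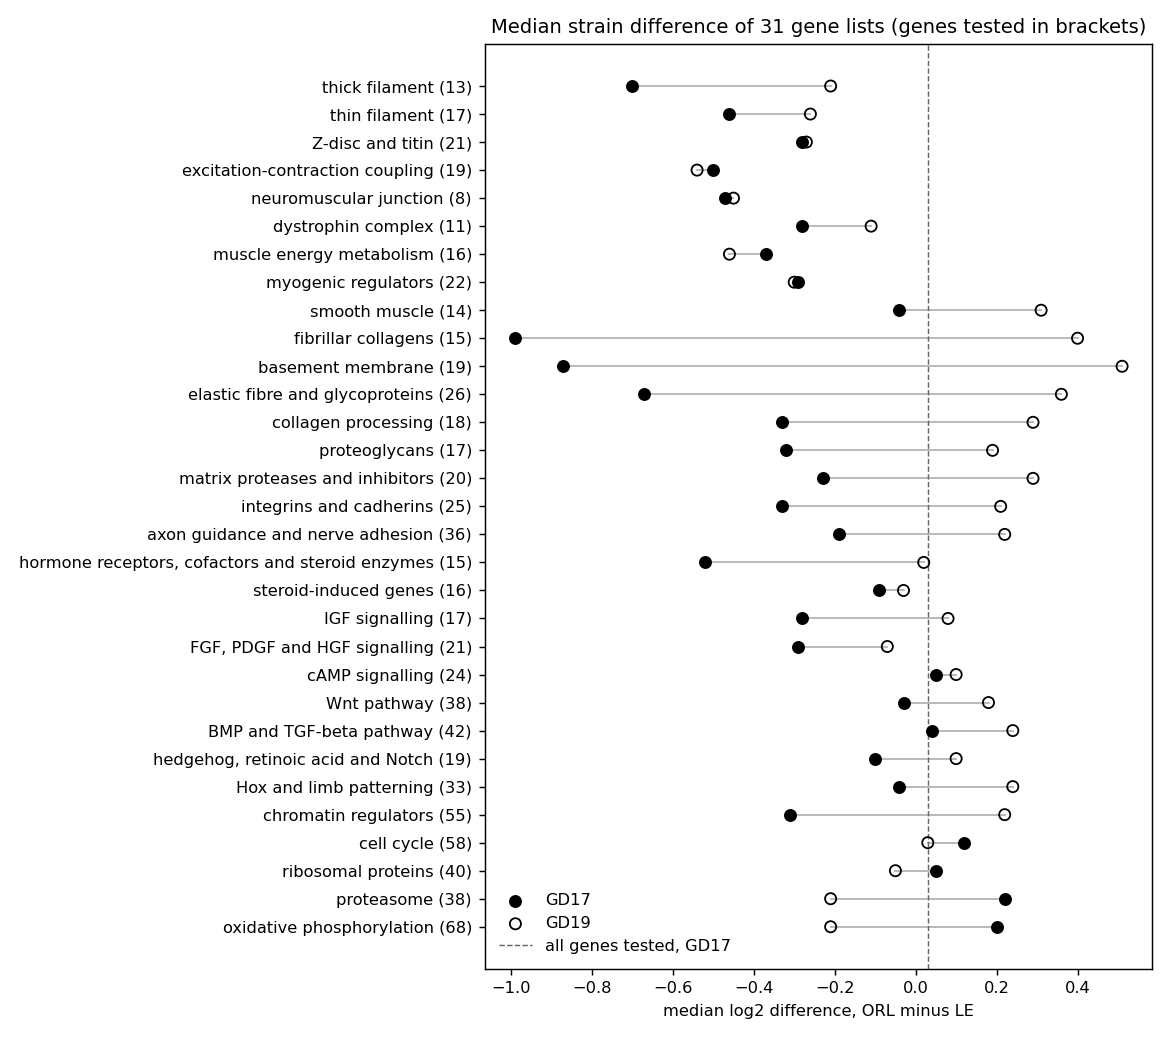
Median strain difference (ORL minus LE, log2) of the genes tested in each of 31 lists at GD17 (filled) and at GD19 (open), with the number of genes in brackets and the median of all genes at GD17 (0.03) as a dashed line. Fibrillar collagens go from -0.99 to 0.40 and basement membrane genes from -0.87 to 0.51, while the coupling, Z-disc and myogenic lists stand at nearly the same place at both ages.

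Among adhesion and guidance genes, called members were nearly all lower. Of 25 integrins and cadherins 10 were lower and 0 higher (median -0.33; 8 lower without LE replicate 4), and of 36 guidance and nerve adhesion genes 9 were lower and 1 higher (median -0.19; 6 lower and 1 higher without it). The share called in the guidance list, 27.8%, was near the 28.6% of all genes, and with the slope on span as a covariate its median was 0.01 with 1 higher and 2 lower. The integrin and cadherin median was then -0.12 with 1 lower. Fat1, a giant cadherin, read 10.68 to 11.45 in LE and 9.61 to 10.78 in ORL (-0.92 ± 0.19, adjusted p = 0.00158). Itga8, an integrin chain of mesenchyme and smooth muscle, read 9.09 to 9.53 in LE and 8.24 to 8.91 in ORL (-0.64 ± 0.15, adjusted p = 0.00451). Ncam1, the neural cell adhesion molecule that muscle precursors also carry, read 7.41, 7.21, 7.53, 8.25 and 6.92 in LE and 5.91 to 6.70 in ORL (-1.18 ± 0.19, adjusted p = 0.000242).

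Among receptors and cofactors of hormones, 7 of 15 genes were lower and 0 higher (median -0.52), and 6 were lower without LE replicate 4 (median -0.35). Their median span was 122 kb, and with the slope on span as a covariate 2 were lower and the median was -0.27. Prlr, the prolactin receptor, read 6.56, 5.86, 4.68, 6.60 and 5.14 in LE and 3.55 to 4.41 in ORL (median 4.08). The groups did not overlap (-1.80 ± 0.30, 3.49-fold lower, adjusted p = 0.000333), and the call held with the slope as a covariate (-1.72, adjusted p = 0.035). Thra, a thyroid hormone receptor, read 6.20 to 6.82 in LE and 5.30 to 6.08 in ORL (-0.71 ± 0.15, adjusted p = 0.00194). Its other probe set was not called. Ncoa1, a coactivator of steroid receptors, read 9.99 to 10.66 in LE and 9.29 to 9.82 in ORL (-0.78 ± 0.15, adjusted p = 0.000856). Nr3c1, the glucocorticoid receptor, read 8.41 to 8.54 in LE and 8.39 to 8.69 in ORL and was not called (0.03 ± 0.0667, adjusted p = 0.74).

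Of 16 genes that androgens or glucocorticoids induce in other tissues, 1 was lower and 0 higher (median -0.09), a share of 6.25% against 28.6% called over all genes. It was Klf9, a factor that glucocorticoid and thyroid hormones induce (8.84, 8.67, 8.49, 9.80 and 8.27 in LE and 7.86 to 8.52 in ORL; -0.73 ± 0.17, adjusted p = 0.00374). Fkbp5, the classic glucocorticoid and androgen target, read 8.04 to 8.58 in LE and 8.03 to 8.47 in ORL and was not called (-0.02 ± 0.0912, adjusted p = 0.897).

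The cAMP pathway, through which the Insl3 receptor is known to signal, went both ways, with 5 of 24 genes higher and 3 lower (median 0.05). The 33.3% called was near the 28.6% over all genes, and without LE replicate 4 the counts were 4 and 4. Crem, a nuclear factor and target of cAMP, read 10.71, 11.42, 11.29, 11.12 and 11.34 in LE and 11.68 to 12.11 in ORL (median 11.93). The groups did not overlap (0.75 ± 0.14, 1.68-fold, adjusted p = 0.000714), and its 4 other probe sets were all called higher as well. Pde3b, which breaks down cAMP, read 5.68 to 6.39 in LE and 6.28 to 6.91 in ORL (0.57 ± 0.14, adjusted p = 0.00499). Akap12, a scaffold of protein kinase A, read 11.00 to 11.77 in LE and 9.83 to 10.74 in ORL (-0.97 ± 0.21, adjusted p = 0.0026).

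Called genes of growth factor signalling were all lower in the IGF and the FGF, PDGF and HGF lists. In IGF signalling, 4 of 17 genes were lower and 0 higher (median -0.28; 2 lower without LE replicate 4). The 23.5% called in that list was below the 28.6% over all genes. The ligands Igf1 (13.60 to 14.00 in LE and 13.54 to 13.79 in ORL) and Igf2 (14.30 to 14.76 and 14.16 to 14.59) were not called, at -0.17 ± 0.0887 and -0.13 ± 0.0874. Igfbp5, a binding protein abundant in muscle and mesenchyme, read 13.37, 14.44, 13.55, 14.06 and 13.82 in LE and 11.58 to 12.81 in ORL (-1.71 ± 0.29, 3.28-fold lower, adjusted p = 0.000346). None of its 4 other probe sets was called. Igf1r, the receptor, read 8.42 to 9.30 in LE and 8.19 to 8.63 in ORL (-0.46 ± 0.13, adjusted p = 0.0119), and its call was lost without LE replicate 4 (-0.32, adjusted p = 0.0675). In FGF, PDGF and HGF signalling, 9 of 21 genes were lower and 0 higher (median -0.29), and 5 were lower without LE replicate 4. They included ligands: Pdgfa, a ligand of the PDGF receptors, read 8.57 to 9.0 in LE and 8.14 to 8.47 in ORL (-0.39 ± 0.0722, adjusted p = 0.000734). Fgf18, a secreted FGF, read 5.56 to 6.15 in LE and 5.08 to 5.62 in ORL (-0.49 ± 0.13, adjusted p = 0.00761). Pdgfrb, the PDGF receptor of perivascular cells, read 9.18 to 9.55 in LE and 8.60 to 9.15 in ORL (-0.44 ± 0.10, adjusted p = 0.0043). Etv5, a factor that FGF signals induce, read 8.35 to 9.20 in LE and 7.87 to 8.20 in ORL (-0.59 ± 0.10, adjusted p = 0.000486).

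In the BMP and TGF-β pathway, 7 of 42 genes were higher and 6 lower (median 0.04), and the 31% called was near the 28.6% of all genes, so the values that follow are of single genes. Without LE replicate 4, 5 were higher and 2 lower. Bmp4, a ligand of limb and genital mesenchyme, read 9.76, 10.09, 9.78, 8.80 and 10.16 in LE and 10.16 to 10.64 in ORL (0.72 ± 0.17, adjusted p = 0.00369). LE replicate 4 was the lowest array, and without it the difference was 0.45 (adjusted p = 0.00717). Id2, which BMP signals induce and which holds back differentiation factors, read 9.20 to 9.68 in LE and 9.78 to 10.33 in ORL (0.62 ± 0.10, adjusted p = 0.000325). Smad7, an induced inhibitor of the pathway, read 7.96 to 8.63 in LE and 8.72 to 9.26 in ORL (0.61 ± 0.14, adjusted p = 0.00293). Bmp7, in contrast, was lower (8.68 to 9.09 in LE and 8.03 to 8.59 in ORL; -0.51 ± 0.10, adjusted p = 0.001). Bmp3 was not called (-0.01 ± 0.23, adjusted p = 0.976).

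Of 38 genes of the Wnt pathway, 2 were lower and 0 higher (median -0.03), and 1 was lower and 1 higher without LE replicate 4. The 5.26% called was below the 28.6% over all genes. Wnt4, a ligand of genital mesenchyme, read 12.08, 11.90, 11.58, 10.86 and 12.28 in LE and 11.02 to 11.75 in ORL (-0.34 ± 0.23, adjusted p = 0.291). Wnt5a read 8.0 to 8.78 in LE and 7.68 to 8.93 in ORL (0.13 ± 0.24, adjusted p = 0.734). Of the 2 lower genes, Apc, of the complex that degrades β-catenin, read 8.65 to 8.81 in LE and 7.66 to 8.40 in ORL (-0.62 ± 0.18, adjusted p = 0.0136).

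In the hedgehog, retinoic acid and Notch list, 2 of 19 genes were higher and 4 lower (median -0.10; 3 and 4 without LE replicate 4). The 31.6% called was near the 28.6% over all genes. The 2 higher genes both bind retinoic acid in the cytoplasm. Crabp1 read 9.92, 10.28, 10.29, 8.81 and 10.19 in LE and 10.34 to 11.52 in ORL (median 11.25). All ORL arrays lay above all LE arrays (1.35 ± 0.23, 2.54-fold, adjusted p = 0.000341). Crabp2 read 10.03 to 10.92 in LE and 10.66 to 11.07 in ORL, with overlap (0.59 ± 0.15, adjusted p = 0.00787). Gli2, which carries the hedgehog signal to the nucleus, read 8.52 to 8.79 in LE and 7.78 to 8.37 in ORL (-0.56 ± 0.13, adjusted p = 0.00287).

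Among Hox genes and other genes of limb patterning, 33 in all, 5 were higher and 2 lower (median -0.04; 3 and 3 without LE replicate 4). The 21.2% called was below the 28.6% over all genes. Alx1, a homeobox gene of mesenchyme, read 6.90, 6.40, 6.55, 8.12 and 7.24 in LE and 5.21 to 6.29 in ORL (-1.18 ± 0.20, 2.27-fold lower, adjusted p = 0.000354). Prrx2, of the same class of mesenchymal homeobox genes, was higher (7.69 to 8.93 in LE and 8.78 to 9.28 in ORL; 0.61 ± 0.15, adjusted p = 0.00491). Hoxa9 read 8.43 to 8.89 in LE and 8.81 to 9.12 in ORL (0.37 ± 0.11, adjusted p = 0.0138). Its neighbours in the cluster, Hoxa10 and Hoxa11, were not called (0.23 ± 0.085 and -0.04 ± 0.10, adjusted p = 0.0541 and 0.796).

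Many mitochondrial and proteasome genes were higher in ORL by small amounts. Of 68 nuclear genes of oxidative phosphorylation 29 were higher, 0 lower and 39 not called, with a median of 0.20. The share called was 42.6%, against 28.6% of all genes, and 14 were higher without LE replicate 4. Ndufa5, a subunit of complex I, read 11.22, 11.39, 11.20, 11.24 and 11.51 in LE and 11.66 to 12.10 in ORL (median 11.96). The groups did not overlap (0.56 ± 0.0935, 1.48-fold, adjusted p = 0.00033). Of 38 proteasome genes 19 were higher and 0 lower (50% called), with a median of 0.22, and 14 were higher without LE replicate 4. In each of these lists 2 genes were higher in batch 1 alone and 0 in batch 2 alone. Psma5, a subunit of the core particle, read 12.04, 12.25, 12.39, 12.20 and 12.41 in LE and 12.73 to 12.99 in ORL (0.58 ± 0.0929, 1.5-fold, adjusted p = 0.000234). Psma2, of the same ring, read 11.43 to 12.03 in LE and 12.22 to 12.52 in ORL (0.51 ± 0.0858, adjusted p = 0.000333) and was still called with the slope on span as a covariate (0.50, adjusted p = 0.0274). Of 40 ribosomal proteins 0 were called (limma, median 0.05), and 3 had all ORL arrays above all LE arrays and 2 all below. Over all genes the shares above and below were 6.81% and 4.3%.

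Many chromatin regulators were lower, and 27 of 55 were not called. Of the 55 genes 25 were lower and 3 higher (50.9% called, against 28.6% of all genes), with a median of -0.31. Without LE replicate 4, 18 were lower and 2 higher. In batch 1 alone 5 were lower, and in batch 2 alone 2. Crebbp, a histone acetyltransferase and coactivator, read 10.16, 10.28, 10.20, 9.90 and 10.03 in LE and 8.28 to 9.22 in ORL (median 8.69). The groups lay apart, and the call held with the slope as a covariate (-1.37 ± 0.14, 2.59-fold lower, adjusted p = 6.28e-07, and -0.98 with the covariate, adjusted p = 0.000378). Of its 4 other probe sets 1 was called the same way. Kmt2d, a methyltransferase of enhancers, read 6.34 to 7.26 in LE and 5.24 to 6.22 in ORL (-1.15 ± 0.19, adjusted p = 0.000294), and the remodeller Chd8 read 10.27 to 10.93 and 9.55 to 10.14 (-0.61 ± 0.12, adjusted p = 0.000933).

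The proteasome, oxidative phosphorylation and chromatin lists moved with the slope on span. Their median spans were 10.5, 7.17 and 74.4 kb, and their medians with the slope as a covariate were 0.08, -0.01 and -0.08, with 1, 0 and 2 genes called. The medians with the slope as a covariate were -0.68 for the thick filament, -0.41 for the thin filament, -0.48 for the Z-disc and -0.67 for calcium coupling. They were -0.31 for the neuromuscular junction, -0.37 for the dystrophin complex, -0.59 for muscle energy metabolism and -0.27 for the myogenic regulators. For smooth muscle, proteoglycans, steroid-induced genes and ribosomal proteins they were 0.04, 0.02, -0.14 and 0.03. For signalling they were -0.01 in the IGF list, -0.12 in the FGF list, 0.04 in the cAMP list, 0.08 in the Wnt list, 0.15 in the BMP list, -0.09 in the hedgehog list and 0.16 in the Hox list. The slope is computed from the same values, so lists of long or short genes move with it by construction. The part of the slope in these results was not tested.

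**Figure D3:**
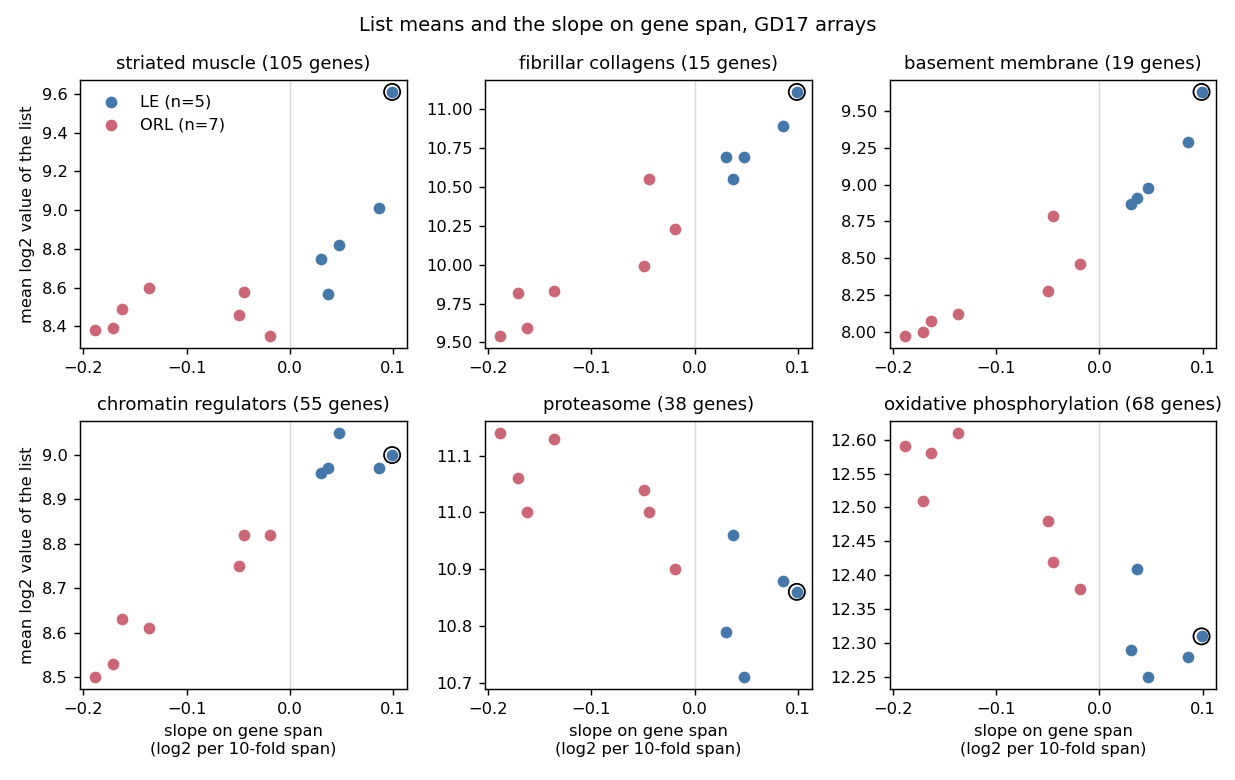
Mean log2 value of 6 gene lists on each GD17 array (vertical axis, LE in blue, ORL in red, ring for LE replicate 4) against the slope of that array's values on gene span (horizontal axis, log2 per 10-fold span). All ORL arrays lie left of 0 and all LE arrays right of it. The striated muscle means of ORL lie between 8.35 and 8.60 and those of basement membrane between 7.97 and 8.79; the slope comes from the same values, so the plot shows no independent relation.

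The cell cycle list, with 58 genes, had 17 higher and 5 lower (median 0.12; 14 and 2 without LE replicate 4). The median was 0.20 in batch 1 and 0.02 in batch 2, and 0.18 with the slope as a covariate. Gmnn, geminin, which keeps DNA from being copied again in the same cycle, read 8.72 to 9.07 in LE and 9.23 to 9.59 in ORL (0.46 ± 0.0858, adjusted p = 0.000741). Mad2l1, of the spindle checkpoint, read 7.0 to 7.42 in LE and 7.57 to 7.96 in ORL (0.52 ± 0.10, adjusted p = 0.00125). Tk1, the thymidine kinase of S phase, went the other way (10.56, 10.17, 9.90, 10.11 and 9.85 in LE and 8.84 to 9.28 in ORL; -1.0 ± 0.12, 2-fold lower, adjusted p = 1.48e-05). Its other probe set was not called.

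Markers of other cells in the pools varied between litters. The share called was 33.3% for macrophages and leukocytes and 35.7% for endothelium, near the 28.6% of all genes. Macrophage and leukocyte markers were higher in 6 of 18 cases and lower in 0 (median 0.53), with the same counts without LE replicate 4, and their summed intensity was 1540 to 5920 in LE and 3470 to 4790 in ORL, with 6 of 24 on the array below 4 on all arrays. The median was 0.82 in batch 1 and 0.14 in batch 2. Lyz2, lysozyme, read 9.19, 8.78, 9.71, 10.85 and 9.62 in LE and 10.21 to 10.84 in ORL (0.88 ± 0.22, adjusted p = 0.00698), so LE replicate 4 was the highest of all. Ccl6, a chemokine of macrophages, read 5.16 to 5.99 in LE and 6.55 to 7.57 in ORL (1.30 ± 0.32, adjusted p = 0.0056). Of 6 mast cell markers 0 were called by limma (median 0.75, 1.58 in batch 1 and -0.54 in batch 2), and 2 were higher without LE replicate 4. That array had a mean of 8.14 over them against 3.96 to 5.43 on the other LE arrays. Of 14 endothelial markers 4 were higher and 1 lower (median 0.30), and 2 higher and 0 lower without LE replicate 4. Cldn5, the claudin of endothelium, read 8.30 to 9.61 in LE and 9.15 to 10.14 in ORL (0.92 ± 0.22, adjusted p = 0.00418). Summed endothelial intensity overlapped, at 3980 to 5620 in LE and 4360 to 5850 in ORL.

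Neurofilament genes, which mark axons, were lower. Nefl, the light chain, read 7.67, 6.88, 7.27, 7.98 and 7.82 in LE and 5.21 to 6.24 in ORL (median 5.26). Nefm, the medium chain, read 7.15, 6.64, 7.43, 8.59 and 7.55 in LE and 4.83 to 5.88 in ORL. Both groups were apart for both genes (-1.93 ± 0.34 and -2.20 ± 0.42, 3.8-fold and 4.61-fold lower, adjusted p = 0.000519 and 0.000869). Over the 9 nerve and Schwann cell markers 4 were lower and 0 higher, with a median of 0.00, and 3 were lower without LE replicate 4. The summed intensity of that list was 7970 to 11500 in LE and 6800 to 8060 in ORL. Of 14 erythroid markers 0 were called (limma, median -0.09), and their summed intensity overlapped (107000 to 210000 and 116000 to 184000). Hbz, an embryonic globin, read 13.91, 13.61, 11.02, 9.61 and 11.89 in LE and 10.76 to 12.51 in ORL (-0.39 ± 0.90, adjusted p = 0.787). Scx, a factor of tendon precursors, read 8.22 to 9.06 in LE and 9.23 to 10.03 in ORL (0.81 ± 0.19, adjusted p = 0.00386), and the tendon list had 1 gene higher and 3 lower of 8 (median -0.19), and 1 and 1 without LE replicate 4. Of 7 fat markers 3 were lower and 0 higher (median -0.11), but 1 was lower and 1 higher without LE replicate 4 (median 0.03). Among the 3 was Fasn, fatty acid synthase, at 11.45 to 11.78 in LE and 10.59 to 11.35 in ORL (-0.59 ± 0.12, adjusted p = 0.00136). Epithelial markers were lower in 4 and higher in 1 of 9 (median -0.37), and 2 were lower and 0 higher without LE replicate 4. Mesothelial ones were lower in 3 and higher in 3 of 11 (median -0.24), and 2 and 2 without that array. Of 4 cartilage and bone markers 1 was higher and 0 lower (median 0.26). The share called was 44.4% for nerve and Schwann cells, 50% for tendon and 42.9% for fat. It was 55.6% for epithelium, 54.5% for mesothelium and 25% for cartilage and bone, against 28.6% of all genes. These lists are small, at 4 to 11 genes tested. The part of these cells in the gene group differences was not tested.

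Whether the strain difference at GD17 differed from that at GD19 was tested as an interaction, with 12 other arrays at GD19. It was called for 2823 of 9610 genes (29.4%), with the GD17 difference more positive for 1613 (16.8%) and more negative for 1210 (12.6%). At GD19 itself 878 genes were higher in ORL (9.14%) and 944 lower (9.82%), 19% in all. Of the genes called at GD17, 10.5% were called the same way at GD19 and 12.1% the opposite way. Taken as shares of the genes called at GD19, these were 15.9% and 18.2%. The slope on span turned as well, since the shortest of 5 span classes had a median difference of 0.14 at GD17 and -0.10 at GD19, and the longest -0.12 and 0.14. With that slope as a covariate the interaction was called for 0 probe sets (limma; 941 at an unadjusted p under 0.05).

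Matrix, mitochondrial and proteasome lists held many such genes. Of 19 basement membrane genes 18 had a more negative difference at GD17 than at GD19 and 0 a more positive one, and their median went from -0.87 to 0.51. Of 15 fibrillar collagens it was 13 and 0, with medians of -0.99 and 0.40. Lama5, lower at GD17, was higher at GD19 (0.56, adjusted p = 0.0284; interaction -1.70 ± 0.25, adjusted p = 0.000371). Hspg2 went from -1.28 to 0.90 (interaction adjusted p = 0.00146). Of 68 oxidative phosphorylation genes 55 had a more positive difference at GD17 and 0 a more negative one (medians 0.20 and -0.21), and of 38 proteasome genes 28 and 0 (0.22 and -0.21). In striated muscle it was 15 more negative and 2 more positive of 105, with medians of -0.45 and -0.31. Myh3 and Neb changed (interaction -1.21 and -2.29, adjusted p = 0.00154 and 0.00305), with differences of 0.08 and 0.20 at GD19, while Chrna1 was lower at both ages (-0.71 and -0.79; interaction 0.08, adjusted p = 0.783). Among the largest single-gene differences, that of Crh was 0.05 at GD19 (interaction 3.92, adjusted p = 0.000184) and that of Nup62cl 0.75 (interaction 2.28, adjusted p = 0.00421), neither called at that age. Zp2, Pard6g, Pxmp4, Cp, Ogn and Alx1 were called at both ages, and their interactions were not called (adjusted p between 0.0805 and 0.964).

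**Figure D4:**
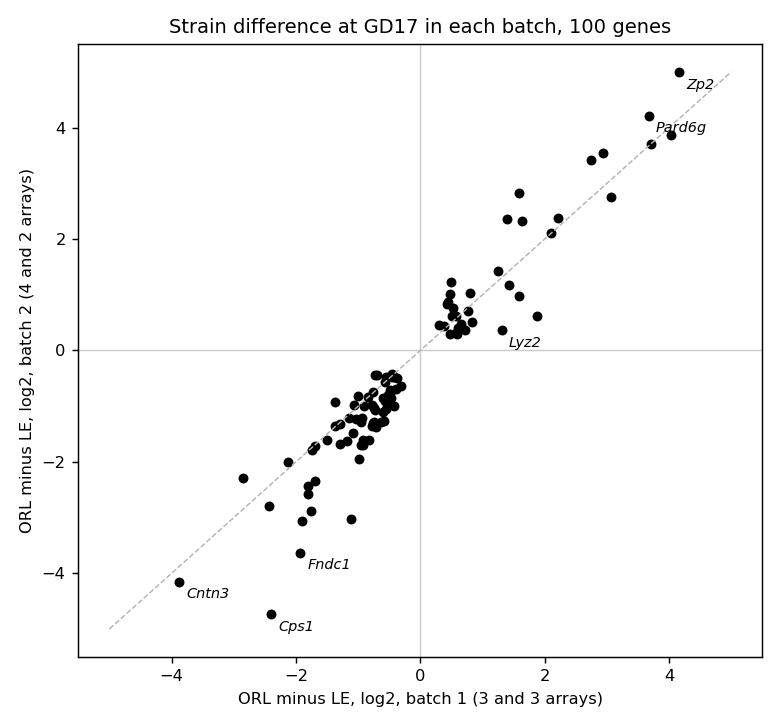
Strain difference (ORL minus LE, log2) in batch 1 (horizontal axis, 3 ORL and 3 LE arrays) and in batch 2 (vertical axis, 4 ORL and 2 LE arrays) of the 100 called genes among those examined singly, with the dashed line marking equal values. All 100 lie in the lower left or the upper right, which their call over both batches nearly fixes; Cps1 lies far from the line, at -2.40 and -4.74, and so does Lyz2, at 1.31 and 0.36.

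The genes plotted by batch were called from both batches together, so a shared sign is nearly fixed by that choice. Batch 1 alone called 613 probe sets and batch 2 alone 586. Zp2 was 4.16 in batch 1 and 4.99 in batch 2, Cntn3 -3.88 and -4.15, Myh3 -1.03 and -1.24, Lama5 -0.96 and -1.29, and Crabp1 1.24 and 1.42. Among the wider gaps between the batches were those of Cps1 (-2.40 and -4.74), Gsta1 (-1.12 and -3.02), Fndc1 (-1.93 and -3.63), Cldn11 (1.58 and 2.82) and Ephx2 (-1.90 and -3.07). Whether they differed between batches was not tested.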

How the data were processed

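The deposited values are log2 intensities of 31099 probe sets, which the authors made by GCRMA. The submitters' processing notes also name R 2.6.2. Neither the GCRMA version nor a joint normalization of all arrays is given in the sources used here. Control probe sets (57) were left out. A probe set was tested where 5 or more of the 24 arrays with a known strain reached log2 4 (15746 probe sets). Of these 12535 carry 1 gene symbol in the platform annotation, 305 several and 2906 none. A gene stands at its brightest such probe set (9610 genes). One model of strain by age with hybridization batch was fitted over the 24 arrays with limma 3.58.1 in R 4.3.3 (lmFit, eBayes, 19 residual degrees of freedom), so the GD19 arrays share the variance estimate. P-values were Benjamini-Hochberg adjusted over all probe sets, and the fit was tested on simulated data. The simulated noise was independent between probe sets. It held no feature shared across an array, such as the slope on span, so it does not bear on calls that such a feature moves. Where all arrays of a group were below 4, a lower bound of the fold is given.

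Genes were named by rule: the largest called differences in each direction, the called members of each list with the smallest adjusted p, its brightest uncalled members, the largest differences between ages and a fixed set. Some of these are described. Pdgfra is given as a marker. The lists and members were chosen with earlier results of these data known. Alternatives covered normalization, filter, batch, variance model, replicate block, single arrays left out and the slope on gene span. Gene spans and promoters come from RefSeq (GRCr8).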

Additional observations from a re-analysis of the deposited data

Results flagged for a closer look

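Among 224 group values checked over 112 genes, 15 held 1 array far from the others of its group, where chance gives about 1 in 20 groups. LE replicate 4 was that array in 9 cases. It was alone at the high end for Myom1 (11.02), Lama2 (9.49), Dtna (6.63), Cdh15 (10.78), Ltbp3 (10.66), Adamts1 (11.89) and Thra (6.82). It was alone at the low end for Abca1 (6.19) and Crabp1 (8.81). In ORL, the lone low arrays were replicate 3 for Ephx2 (2.65), replicate 7 for Hrc (5.33), replicate 5 for Dtna (2.98) and replicate 1 for Crabp2 (10.66), and the lone high array was replicate 2 for Aspn (10.42) and Ccl6 (7.57).

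The strain difference at GD17 differed from that at GD19 for 60 of the 112 genes by the interaction test of limma. Over all genes tested the share was 29.4%. The 112 genes were picked in part for their GD17 difference or for a large change between ages, which raises their share. The values that follow are the log2 strain difference at GD17 minus that at GD19. It was positive for Crh 3.92, Chrna5 1.75, Pnlip 2.78, Nup62cl 2.28, Ndufa5 0.77, Ndufa4 0.43, Psma5 0.72, Psma2 0.71, Gmnn 0.69, Mad2l1 0.63, Cldn5 0.95 and Scx 0.85. Among genes of muscle and nerve contact it was negative for Myh3 -1.21, Myh7 -1.80, Myom1 -0.79, Neb -2.29, Tmod1 -0.83, Flnc -1.02, Ryr1 -2.15, Hrc -1.09, Lrp4 -1.27, Agrn -1.72, Dag1 -0.40, Myh11 -1.99 and Ncam1 -1.05. Among genes of matrix and adhesion it was negative for Lama2 -1.62, Col1a1 -1.67, Col5a1 -1.55, Col24a1 -0.81, Lama5 -1.70, Lamb2 -0.90, Nid2 -1.21, Hspg2 -2.18, Fbn1 -1.55, Ltbp3 -1.27, Fbln2 -1.30, Loxl1 -0.86, Adamts1 -0.77, Fndc1 -2.95, Itga8 -0.96, Fat1 -1.47 and Cntn3 -1.23. Among genes of receptors and signalling it was negative for Prlr -1.68, Thra -0.85, Ncoa1 -1.18, Klf9 -0.80, Akap12 -0.93, Igf1 -0.68, Igf1r -0.93, Pdgfrb -0.88, Bmp7 -0.46, Gli2 -1.19, Wnt4 -1.28 and Apc -1.12. Among genes of chromatin, lipid and membrane proteins it was negative for Crebbp -1.37, Kmt2d -1.46, Chd8 -0.76, Fasn -0.60, Abca1 -1.66 and Ano3 -0.65. Both ages share no arrays. The slope of values on gene span also ran the opposite way at GD19, and its part in these differences was not tested for single genes.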

How the results depend on the processing

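At GD17 the fit called 4026 probe sets in all. Refitted totals were 2656 without LE replicate 4 (2526 of them called with it too), 613 in batch 1 alone, 586 in batch 2 alone and 415 once the gene span slope was a covariate, a setting chosen after seeing the data. Called with a 2-fold difference were 355, against 196 in batch 1 alone and 145 with the slope. The interaction with age went from 4106 to 1913 in batch 2 alone, to 2 in batch 1 alone (limma; 3132 at an unadjusted p under 0.05) and to 0 with the slope (941 at an unadjusted p under 0.05). Leaving out each array in turn gave 2656 to 4098, 259 to 425 and 3344 to 4160. A replicate block gave 2983, 306 and 3213. The replicate numbers were not taken as pairs in the main fit, since they name litters of different strains. Deviations from group means of same-numbered arrays had correlations of 0.3577, -0.0722, -0.1217, 0.2109 and -0.0404. Batch was left in these deviations, so they cannot settle whether arrays were paired. Without LE replicate 4 at GD17 and ORL replicate 4 at GD19, left out after seeing the data, the counts were 2709, 268 and 3115. Other normalizations, filters and variance models stayed within 1.5 times. Of 100 called genes examined singly, 95 kept their call and sign without LE replicate 4, 48 in batch 1 alone, 41 in batch 2 alone and 27 with the slope. Most of the 100 were picked for large differences or small adjusted p, which favours keeping a call. Over all genes, 1753 of the 2745 called were called with and without LE replicate 4. Agrn turned from -0.83 to 0.11 with the slope (adjusted p = 0.828). A fit within a batch also holds fewer arrays, and the cause of these changes was not tested. The number of arrays limits the precision, and dim genes carry only bounds.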
